A study of Mus musculus with 4 samples.

Results

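Alveolar type 2 (AT2) cells are the secretory cells of the gas exchange surface. They make surfactant, a mixture of phospholipid and the proteins SP-A, SP-B, SP-C and SP-D that is stored in lamellar bodies and keeps alveoli open, and they carry innate defence proteins and MHC class II. Alveolar type 1 (AT1) cells are the thin neighbouring cells across which gas passes, and both types arise from progenitors at the tips of the developing airway. Around birth the secretory programme of AT2 cells has started and the alveoli are still forming.

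Among 3149 mouse lung cells sorted as AT1 cells at postnatal day 3 (P3), 67 cells (2.13%, exact binomial interval 1.65 to 2.69%) carried an AT2 profile, out of 9519 cells in the whole series. They were chosen by measured values: at least 100 UMIs (unique molecular identifiers, 1 per captured transcript) per 10000 from Sftpc, the gene of surfactant protein C, and a UMI from at least 3 of Slc34a2, Lamp3, Cxcl15, S100g and Abca3. They are called Sftpc-high cells here, since their profile also held AT1 transcripts at high levels, as described below. The other 3082 cells of the library are the remaining cells.

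The series holds 4 single-cell libraries, 1 per group, and therefore no replicates, so no test between groups was possible. AT1 cells were collected at P3, P15 and P60 and AT2 cells at P60. All mice were of a mixed FVB/C57BL6 background, carried Sftpc-CreER, Rosa26-Zsgreen and Hopx-RFP, and had been given tamoxifen. The Sftpc promoter drives the tamoxifen-activated recombinase, which turns on the green reporter, and the red reporter is tied to Hopx, a gene of AT1 cells. The AT1 gate took RFP+ Pdpn+ cells without the green label or CD45, and the AT2 gate took green cells without CD45, so a cell with the green label was outside the gate in which the Sftpc-high cells were found. Both digestions used DNase I and neutral protease, and elastase with type I collagenase was added for the AT1 libraries alone. DAPI marked dead cells. Age, gate, digestion and sex makeup all differ between the P3 AT1 library and the P60 AT2 library and cannot be told apart in any comparison between them. Sex was read from the data: 32 Sftpc-high cells carried UMIs of Xist, the RNA of the inactive X chromosome, alone, and 23 of Y-linked genes alone. In the adult AT2 cells these numbers were 10 and 801. How many animals a library pools was not stated in the sources used here.

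The 4 libraries held 26536894, 15401939, 7276458 and 10379705 UMIs. The Sftpc-high cells contributed 1121906 UMIs and the remaining cells 25414988. Levels are given as CPM, the UMIs of a gene scaled to a fixed total over a set of cells. Intervals in parentheses are exact 95% intervals on the counts and cover counting error only, not the spread between animals. Barcodes were shared between the P3 library and the others in 15 cells (P15), 5 cells (P60 AT1) and 11 cells (P60 AT2), and 1 of the 15 was a Sftpc-high cell.

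Of the 67 cells, 61 had a UMI from all 5 further AT2 genes, 5 from 4 and 1 from 3. Sftpc ranged from 175 to 1508 UMIs per 10000 with a median of 690. Just outside the rule lay 6 cells with Sftpc between 105 and 404 but fewer than 3 further genes, and 3 cells with 3 or more further genes but Sftpc between 53.7 and 70.2. Free RNA was present: a Sftpc UMI occurred in 72.6% of the remaining cells and in 85.0% of the 127 ciliated cells of the same library, at medians of 1.55 and 1.74 per 10000, far under the lowest Sftpc-high cell. The same rule found 24 of 2940 cells in the P15 library (0.816%), 11 of 1337 in the P60 AT1 library (0.823%) and 2051 of the 2093 cells of the P60 AT2 library.

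**Figure D1:**
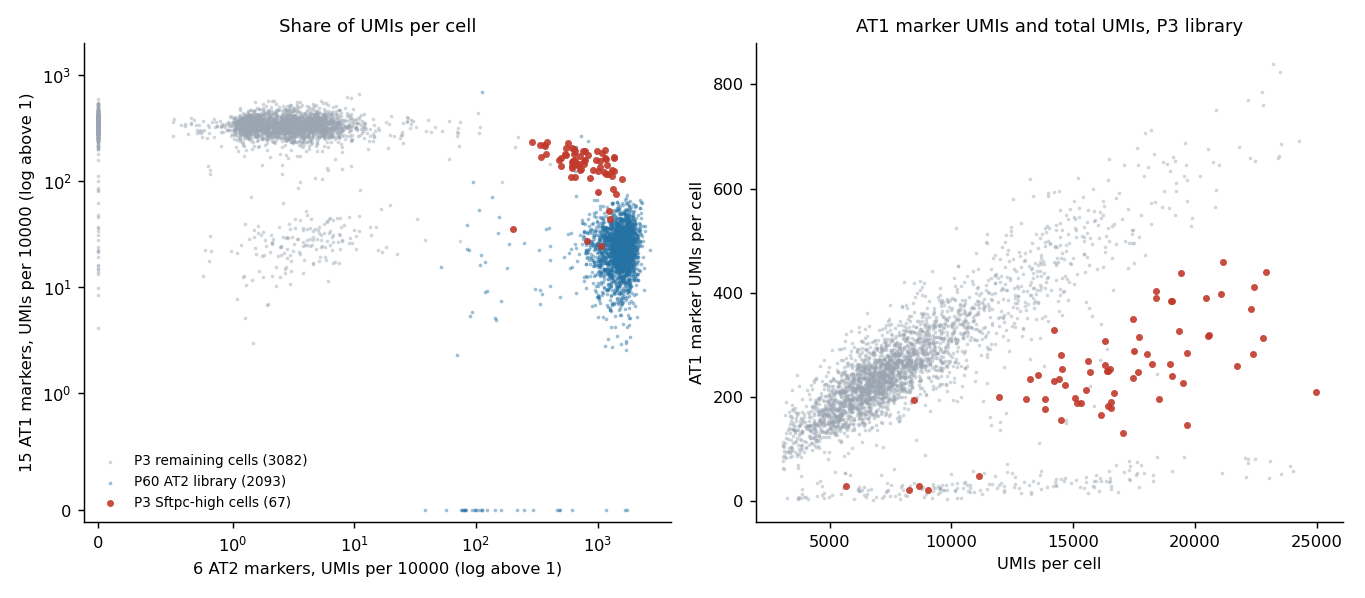
Left, each cell's UMIs per 10000 from 6 AT2 markers (x) and 15 AT1 markers (y). Right, total UMIs per cell (x) and AT1 marker UMIs per cell (y) in the P3 library. The 67 Sftpc-high cells lie between the remaining P3 cells and the adult AT2 cells in AT1 share, and at the deep end of the library in total UMIs.

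AT1 transcripts were present in the Sftpc-high cells. The summed share of 15 AT1 markers ranged from 24.4 to 232 UMIs per 10000 with a median of 153, against medians of 328 in the remaining cells, 27.8 in the ciliated cells and 23.1 in the adult AT2 cells. Their summed level was 49.4% (48.7 to 50.2) of that in the remaining cells. The 15 genes lay close together, from 38.8% (34.8 to 43.2) for Pdpn, the surface glycoprotein used in the gate, to 61.8% (56.5 to 67.4) for Clic5, a chloride channel family protein, with a median of 49.0%. Ager, the receptor that is abundant on AT1 cells, was at 50.5% (49.5 to 51.6), Hopx at 49.0% (44.8 to 53.5) and the water channel gene Aqp5 at 47.0% (43.9 to 50.3). In the ciliated cells, which should lack these genes, the same 15 genes were at 4.35 to 22.6% (median 8.37%). The AT1 transcripts of the Sftpc-high cells were therefore above the background of this library for each of the 15 genes.

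**Figure D2:**
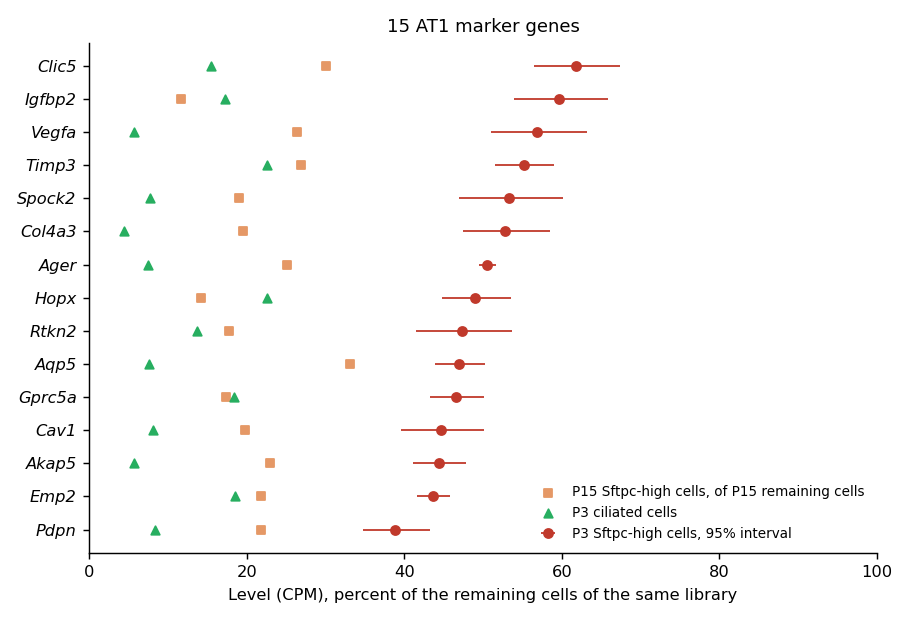
Level of each of 15 AT1 marker genes as a percentage of the level in the remaining cells of the same library, for the P3 Sftpc-high cells (points with 95% counting intervals), the P15 Sftpc-high cells and the P3 ciliated cells. The P3 Sftpc-high cells lie between 38.8 and 61.8%, the P15 cells between 11.6 and 33.1% and the ciliated cells between 4.35 and 22.6%.

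The Sftpc-high cells were also deep. They held a median of 16556 UMIs (5672 to 24969), 2.23 times the 7411 of the remaining cells (3081 to 24285), and 59 of 67 (88.1%) lay above 13129 UMIs, the 90th percentile of the remaining cells. Counted per cell and not as CPM, the AT1 markers were at a median of 248 UMIs in the Sftpc-high cells and 239 in the remaining cells, a ratio of 1.04, against 31.0 in the ciliated cells. For the 15 genes singly the ratio of UMIs per cell ran from 0.788 to 1.25 with a median of 0.995. A Sftpc-high barcode thus held about as many AT1 marker UMIs as an AT1-gate barcode in addition to its AT2 transcripts. Whether 1 or more cells lay behind a barcode was not tested.

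Measurements that bear on several cells per barcode are these. The library held cells of both sexes: among the Sftpc-high cells 32 carried Xist UMIs and none from 4 Y-linked genes, 23 the reverse, 11 neither, and 1 both (1.49%, 0.0378 to 8.04). Among the 309 remaining cells above 13129 UMIs, 24 carried both (7.77%). The doublet caller Scrublet marked 1 cell of the whole library (0.0318%), which is too few for it to have worked, and none of the 67.

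Cells with few AT1 transcripts were a minority at P3. Only 8 of the 67 had an AT1 marker share under 100 per 10000, with UMIs of 5672 to 24969 (median 10088). A Hopx UMI was found in 4 of those 8 and in 59 of the other 59, and 13 cells lay within 25 of that limit. At P15, 19 of 24 Sftpc-high cells lay under 100, the highest of them at 85.9, and 5 lay between 206 and 359. In the P60 AT1 library 10 of 11 lay under 100 and 1 was at 176. The P15 cells had a median of 5798 UMIs, 1.18 times the rest of their library. The P3 cells thus had higher AT1 shares than most of the later cells and were deeper relative to their library, and the part of depth in this difference was not tested.

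With every cell thinned to 2000 UMIs, a Hopx UMI was found in 58.2% of the Sftpc-high cells (45.5 to 70.2), 78.6% of the remaining cells, 26.8% of the ciliated cells and 3.19% of the adult AT2 cells, of which 84 were shallower and left out. For Pdpn the same shares were 35.8, 76.4, 16.5 and 0.548%. Without thinning, Hopx was found in 63 of the 67 cells and Pdpn in all 67. Both genes of the gate were thus detected in most of the Sftpc-high cells at their own depth, more often than in ciliated cells at equal depth.

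The promoters of surfactant genes that the rule did not use are shown beside that of the AT1 gene Ager, because the same barcodes carried the transcripts of both kinds. Of Sftpc, Sftpa1, Sftpb and Ager, 3 matched the promoter table. The 250 bases before each start are given from RefSeq on GRCm38.p6, plus strand, with CTCAAG or its reverse CTTGAG in capitals, the core of the motif of NKX2-1, a regulator of both alveolar types that activates surfactant genes. Of all 32851 promoters in the table, 13.3% hold this core on either strand in the same window.
Sftpa1 (chr14:41131538-41131787): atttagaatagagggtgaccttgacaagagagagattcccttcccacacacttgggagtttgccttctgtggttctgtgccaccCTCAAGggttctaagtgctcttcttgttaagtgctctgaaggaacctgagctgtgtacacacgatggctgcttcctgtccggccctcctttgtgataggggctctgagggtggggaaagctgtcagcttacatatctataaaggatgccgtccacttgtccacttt
Sftpb (chr6:72304360-72304609): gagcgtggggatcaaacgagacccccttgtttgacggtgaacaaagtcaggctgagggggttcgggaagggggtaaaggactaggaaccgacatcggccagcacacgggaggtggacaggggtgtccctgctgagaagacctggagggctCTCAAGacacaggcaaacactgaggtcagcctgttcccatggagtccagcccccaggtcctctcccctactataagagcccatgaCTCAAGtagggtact
Ager (chr17:34597600-34597849): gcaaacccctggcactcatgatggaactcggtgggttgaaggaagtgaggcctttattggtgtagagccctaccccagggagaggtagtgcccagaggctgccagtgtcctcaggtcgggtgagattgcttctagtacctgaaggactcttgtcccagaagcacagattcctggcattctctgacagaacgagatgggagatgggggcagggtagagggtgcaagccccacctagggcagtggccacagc
The Sftpa1 window holds the core once, with its first base 166 before the start, the Sftpb window holds it 2 times, at 100 and 15, and the Ager window does not hold it, as is the case for most promoters in the table. These are matches of letters in a window and no measure of binding. Nkx2-1 itself was at 347 CPM in the Sftpc-high cells, 389 in the remaining cells and 322 in the adult AT2 cells.

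Against the remaining cells, 146 of 3060 genes with at least 50 CPM on 1 side were at least 2-fold higher in the Sftpc-high cells (4.77%) and 207 at least 2-fold lower (6.76%). The sum of all UMIs sets this split: with trimmed mean scaling (TMM) it was 183 higher and 71 lower, and with the surfactant genes left out of the total it was 170 and 114. Since the cells were chosen on AT2 genes, these ratios describe the choice. Among the 12 highest ratios of genes at 100 CPM or more were those of Hc, Slc34a2, Lyz1, S100g, Sftpa1, Sftpc, Dlk1, Lcn2, Lamp3, Scd1 and Sftpb, from 621-fold for Hc, complement component C5, to 101-fold for Sftpb. Among genes with at least 100 CPM in the remaining cells and named symbols, the 12 lowest were Psca, Cnfn, Scgb3a2, Gsto1, Scgb1a1, Cdkn1c, Mt2, Cyp2f2, Sdpr, Akr1c14, Itm2a and Sec14l3, from 9.67 to 3.02 times lower. Cdkn1c and Mt2 turned direction when remaining cells of mixed type were left out, and Cdkn1c and Cyp2f2 in the Sftpc-high cells of lower depth. Scgb1a1, Scgb3a2 and Cyp2f2 are club cell genes, and club markers summed to 1251 CPM in the Sftpc-high cells and 4816 in the remaining cells. Ciliated markers summed to 576 and 1647 CPM.

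Markers of other cell types differed in how often they occurred. None of the 67 had 3 or more markers of endothelial, fibroblast, pericyte or smooth muscle, or immune cells. Of the 67, 6 had 3 or more ciliated markers and 26 had 3 or more club markers. Neuroendocrine cells could not be judged so, since 1 of their 6 markers was listed. For mesothelial and for erythroid cells 3 of 6 were listed, and no cell held all 3. Among the 3082 remaining cells, which were shallower, 202 had 3 or more ciliated and 330 had 3 or more club markers. The median share of club markers was 11.7 per 10000 in the Sftpc-high and 10.9 in the remaining cells. Of 9 immune markers 7 were listed at 0 in these cells, including Ptprc, the gene of CD45, which the gate excluded.

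The comparison with adult AT2 cells sets the newborn level of each AT2 gene beside its adult level. Of 2772 genes, 561 were at least 2-fold higher in the P3 Sftpc-high cells (20.2%) and 239 at least 2-fold lower (8.62%), or 379 and 346 with trimmed mean scaling. AT1 and other transcripts of the P3 library enter this comparison. It is therefore given also after subtracting the profile of the remaining cells, scaled to the median AT1 level of 49.0%. It is given too for the 8 cells with the lowest AT1 shares. Both settings were chosen after the data were seen. The subtraction left 291 of 2494 genes higher and 382 lower, and in the 8 cells 600 of 2722 were higher and 352 lower. Subtraction also lowers the total, so a gene nearly absent from the remaining cells rises by the scaling alone. For example, Lamp3 went from 0.224 to 0.438 of the adult level and Scd1 from 0.0396 to 0.0774. In the 8 cells, 0 UMIs were given as 3, which makes 28.7 CPM. There a gene without UMIs can count as 2-fold higher where its adult level is low. The counts of higher genes given below for the 8 cells carry this limit. Gene lists were counted over genes with at least 30 UMIs over both sets. By that rule, over all genes, 16.2% were at least 2-fold higher than in adult AT2 cells and 9.28% lower, with a median log2 ratio of 0.24, and against the remaining cells 5.86% were higher and 12.9% lower, with a median of -0.27. These shares hold without the subtraction and over all Sftpc-high cells. They were not counted by the list rule for the other settings. With the 50 CPM minimum, lower genes went from 239 to 382 after the subtraction and 352 in the 8 cells. Higher genes went from 561 to 291 and 600. List counts in those settings therefore cannot be set beside 16.2% and 9.28%.

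Surfactant protein genes were above the remaining cells and at or under the adult AT2 level. Sftpc, whose level the rule fixed in part, was at 77203 CPM in the Sftpc-high cells, 279 in the remaining cells, 135533 in the P15 Sftpc-high cells and 134399 in the adult AT2 cells. It was 1.74 times lower than in adult AT2 cells and 1.27 times in the 8 cells with few AT1 transcripts. After the subtraction it was 0.889 times, a turn of direction that the scaling set in part. Sftpa1 was at 10295, 35.1, 27506 and 37742 CPM in the same order, 3.67 times lower than in adult cells, 1.87 times after the subtraction and 3.13 times in the 8 cells. Sftpb was at 8131, 80.5, 19952 and 16628 CPM, and Sftpd, a collectin of airway defence, at 1686, 94.8, 4713 and 5794. Napsa, the aspartic protease that processes SP-B and SP-C, was at 1520 CPM against 2519 in adult cells, 1.66 times lower. It was lower in the 8 cells too, and 0.858 times after the subtraction, again on the other side of the adult level and with the same limit. Of 7 measured genes of the list, which includes Sftpc, 6 were at least 2-fold higher than in the remaining cells (median log2 ratio 4.99), a count that the choice of the cells fixed in part. Against adult AT2 cells 4 were lower and none higher (median -1.03), and after the subtraction none was lower and 1 was higher (median -0.07). The scaling of the subtraction set this shift in part. In the 8 cells 2 were lower and none higher (median -0.67).

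**Figure D3:**
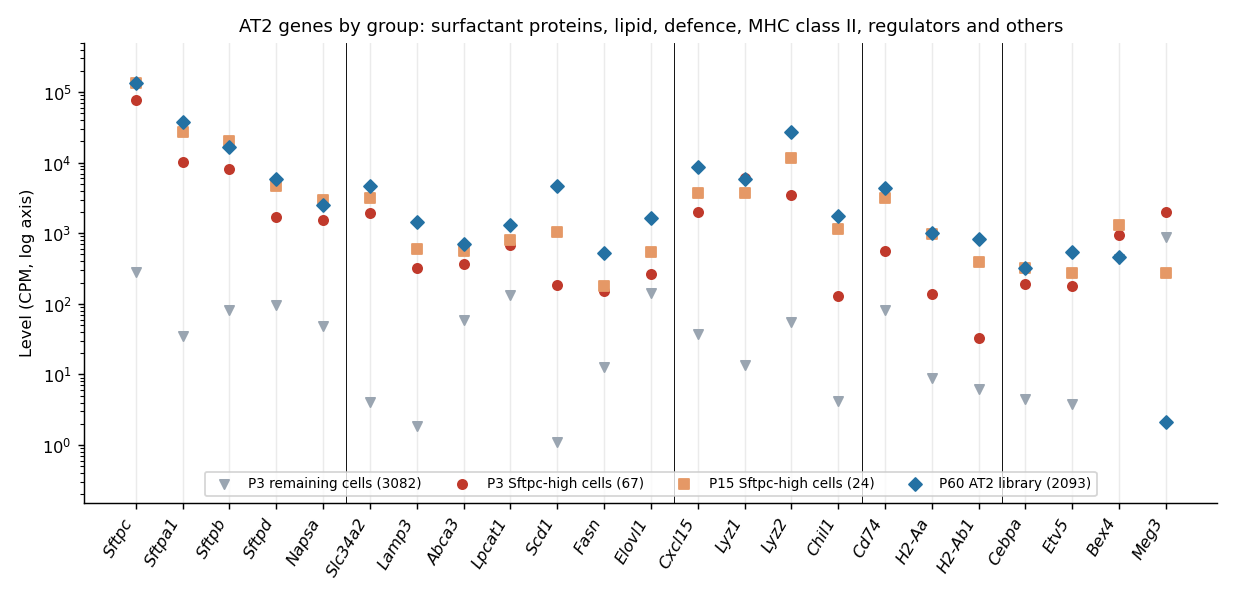
Level (CPM, log axis) of AT2 genes in the remaining P3 cells, the P3 and P15 Sftpc-high cells and the P60 AT2 library, in blocks of surfactant protein, lipid, defence, MHC class II and other genes. Sftpc at P3 (77203 CPM) is 1.74 times under the adult value, while Scd1 (187 against 4729) and H2-Ab1 (33.0 against 828) lie far under it, and Meg3 (2022 against 2.12) lies above it.

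The lipid side of surfactant was less even. Scd1, the desaturase that makes monounsaturated fatty acids, was at 187 CPM in the P3 Sftpc-high cells and 1.10 in the remaining cells. It was at 1026 in the P15 cells, 1967 in the P60 Sftpc-high cells of the AT1 gate and 4729 in the adult AT2 cells. It was 25.3 times lower at P3 than in adult AT2 cells (22.1 to 29.1), 12.9 times after the subtraction and 35.3 times in the 8 cells with few AT1 transcripts. A Scd1 UMI was found in 50 of the 67 cells, at 0 to 11.6 per 10000 (median 1.17), and in 2076 of 2093 adult cells with a median of 39.7. The level of Scd1 thus followed the order of age over the AT1-gate cells, with 1 library at each age and 11 cells at P60. The AT1 marker level of the Sftpc-high cells fell in the same order. It was 49.4% of that in the remaining cells at P3, 23.9% at P15 and 17.8% at P60, and its part in the order of Scd1 was not tested. Sex makeup changed along with age: Xist alone was found in 5 cells at P15 and 14 in the P60 AT1 library. Y-linked genes alone were found there in 1334 and 625 cells, while P3 held both sexes.

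Fatty acid synthase, Fasn, was at 152 CPM against 518 in adult AT2 cells, 3.42 times lower, 1.82 after the subtraction and 4.92 in the 8 cells. Elovl1, which lengthens fatty acids, was at 268 against 1642, which was 6.12, 4.21 and 3.81 times lower in the same order. Lamp3, a lamellar body membrane protein of the rule, was at 320 against 1430, 4.47, 2.28 and 3.83 times lower. Abca3, the transporter that loads phospholipid into lamellar bodies, was nearer to the adult level, at 371 against 697 CPM, 1.88, 1.04 and 2.02 times lower. Lpcat1, the acyltransferase that makes surfactant phosphatidylcholine, was at 680 against 1320. Of 26 measured lamellar body and lipid genes, 12 were at least 2-fold lower than in adult AT2 cells and none higher (median log2 ratio -0.93), and after the subtraction 6 were lower and 1 higher (median -0.46). In the 8 cells 13 were lower and 3 higher (median -0.84). For cholesterol synthesis and uptake 8 of 23 were lower and none higher (median -0.70), and after the subtraction none passed 2-fold in either direction (median -0.38). In the 8 cells 10 were lower and 1 higher (median -0.90).

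Defence genes lay further under the adult level. Of 15 measured innate defence genes 12 were at least 2-fold lower than in adult AT2 cells and none higher (median log2 ratio -2.08), after the subtraction 8 were lower and 1 higher (median -1.12), and in the 8 cells 9 were lower and none higher (median -1.35). Chil1, a chitinase-like protein, was at 127 CPM against 1780, 14.0 times lower, 7.24 after the subtraction and 23.2 in the 8 cells. Lcn2, which binds bacterial siderophores, was at 415 against 993, which was 2.39, 1.22 and 3.99 times lower in the same order. Cxcl15, a lung chemokine of the rule, was at 2027 against 8549, 4.22, 2.17 and 3.60 times lower.

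The lysozyme genes differed from each other. Lyz2 was at 3504 CPM in the P3 Sftpc-high cells, 11803 at P15 and 27198 in adult AT2 cells, 7.76 times lower at P3 than in the adult, 3.99 times after the subtraction and 4.49 times in the 8 cells. Lyz1 was at 5991, 3667 and 5818 CPM, a ratio of 1.03 to the adult, 2.02 after the subtraction and 1.61 in the 8 cells. The P15 value was not spread over the cells, since the median P15 cell was at 0.321 per 10000 and the highest at 384. The genes are close copies, and how reads matching both were assigned was not stated in the sources used here. Cells differed widely: Lyz1 ranged from 0 to 324 per 10000 (median 6.30) and Lyz2 from 0 to 230 (median 2.08). With 10 per 10000 as the limit, 15 cells were above it for both, 17 for Lyz1 alone, 13 for Lyz2 alone and 22 for neither. In adult AT2 cells the median of Lyz2 was 246 per 10000, so the highest P3 cell was under the adult median.

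MHC class II genes were the list furthest under the adult level. All 8 measured genes were at least 2-fold lower (median log2 ratio -2.73), and 6 after the subtraction (median -1.97). In the 8 cells with few AT1 transcripts 6 were lower and 2 higher (median -2.01). A gene with 0 UMIs, given 3 there, can count as higher, and whether this holds for the 2 was not tested. Cd74, the invariant chain, was at 559 CPM in the P3 Sftpc-high cells, 82.4 in the remaining cells, 3173 in the P15 Sftpc-high cells and 4401 in adult AT2 cells. H2-Ab1, a class II beta chain, was at 33.0, 6.18, 394 and 828 CPM in the same order, 25.1 times lower than in the adult (18.2 to 35.7), 14.1 times after the subtraction and 17.3 times in the 8 cells. H2-Aa, an alpha chain, was at 138, 8.89, 970 and 1008 CPM, and H2-Eb1 at 23.2, 2.83, 50.1 and 418. Cd74 was detected in 57 of the 67 cells at 0 to 52.9 per 10000 (median 2.58), against a median of 37.3 in the adult. Immune markers summed to 50.8 CPM in the P3 and 801 CPM in the P15 Sftpc-high cells, where 2 of 24 cells held 3 or more of them; their part in the higher class II levels at P15 was not tested. Over all genes, 329 of 2972 were at least 2-fold higher in the P3 than in the P15 Sftpc-high cells (11.1%) and 253 lower (8.51%).

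**Figure D4:**
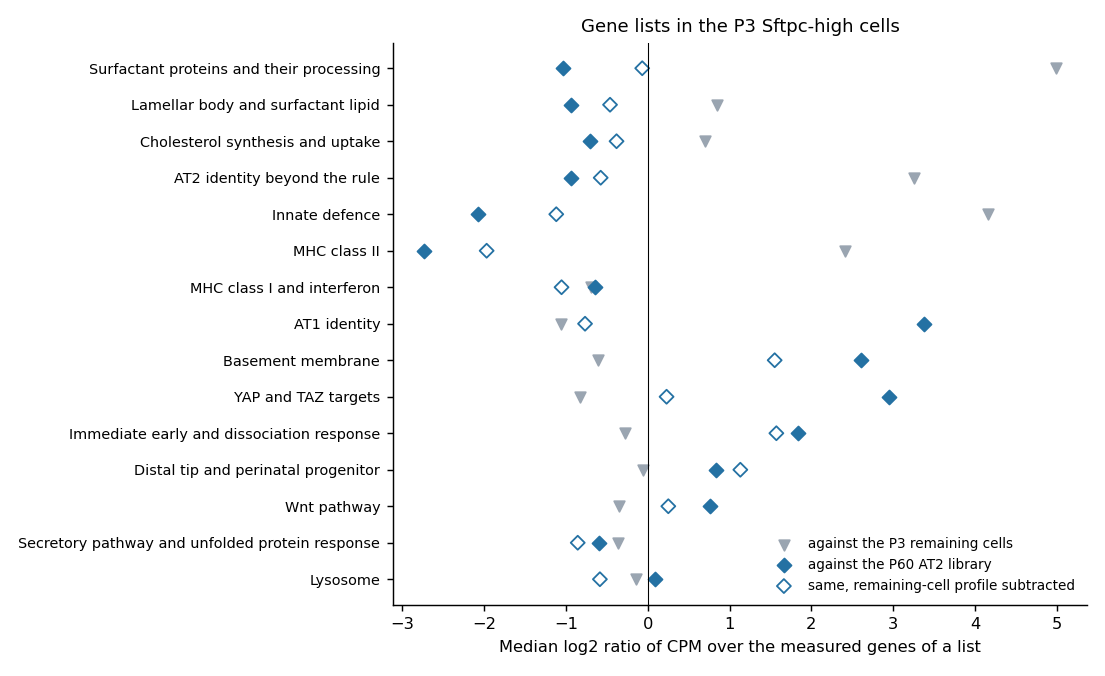
Median log2 ratio of CPM over the measured genes of each list, for the P3 Sftpc-high cells against the remaining P3 cells, against the P60 AT2 library, and against the latter after subtraction of the remaining-cell profile. MHC class II (-2.73) and innate defence (-2.08) lie furthest under adult AT2 cells. The AT1 identity list moves from 3.38 to -0.77 with the subtraction, which was scaled on AT1 markers and so sets this move in part. Genes nearly absent from the remaining cells rise with the subtraction by its scaling alone.

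The lowest ratios to adult AT2 cells included acute phase genes. Lrg1, a secreted glycoprotein of the acute phase, was at 12.5 CPM against 756, 60.6 times lower (36.1 to 111), 31.1 times after the subtraction and 79.0 times in the 8 cells with few AT1 transcripts. Haptoglobin, Hp, was at 41.0 CPM against 959, which was 23.4, 44.0 and 33.4 times lower in the same order. The myosin light chain kinase gene Mylk was at 1.78 CPM, 2 UMIs in all, against 103, which was 57.6, 19.6 and 10.7 times lower. Itih4, Lrp2, Cox6a2, Aox3, Npw and Smim6 were between 22.2 and 14.7 times lower. After the subtraction they lay between 11.3 and 8.92 times lower, and in the 8 cells between 39.2 times for Itih4 and 3.64 times for Smim6. In the 8 cells 3 UMIs make 28.7 CPM, the value also given to 0 UMIs. Hp, Lrp2, Cox6a2 and Smim6 lay at it there, so their ratios cannot be told from those of genes without UMIs. Lrg1, Itih4, Mylk and Aox3 lay under it there, at fewer than 3 UMIs, so the sizes of their ratios in the 8 cells are not reliable. With Scd1, H2-Ab1 and H2-Eb1 the genes of this paragraph had the 12 lowest ratios among genes of at least 100 CPM in adult AT2 cells.

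Transcription factors of the AT2 fate were present. Cebpa, which is required for AT2 maturation, was at 190 CPM in the P3 Sftpc-high cells, 4.49 in the remaining cells, 319 in the P15 cells and 324 in adult AT2 cells. It was 1.71 times lower than in the adult. After the subtraction this was 0.881 times and in the 8 cells 0.967 times, both on the other side of the adult level. The scaling of the subtraction set the former value in part. Etv5, a target of FGF signalling that maintains AT2 identity, was at 178, 3.82, 275 and 551 CPM. Fgfr2, the receptor of that pathway, was at 194 CPM against 29.4 in the remaining cells and 219 in adult AT2 cells. Of 11 FGF pathway genes 3 were at least 2-fold higher than in the remaining cells, and against adult AT2 cells 2 were lower, Etv5 and Spred2, and after the subtraction none was lower and 1 higher. Etv5 was 3.09 times lower than in the adult, 1.59 times after the subtraction and 3.20 times in the 8 cells. In the AT2 identity list beyond the genes of the rule, 33 of 42 were at least 2-fold higher than in the remaining cells and 2 lower. Against adult AT2 cells 19 of 41 were lower and 4 higher, Slc31a2, Cldn18, Bex4 and Slc6a14 (median log2 ratio -0.93). After the subtraction 9 were lower and 4 higher (median -0.58), and in the 8 cells 15 and 4 (median -0.65).

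Few genes lay at least 2-fold outside the range of both references, the remaining cells and the adult AT2 cells. Of 3286 genes, 419 (12.8%) were above both and 543 (16.5%) below both by any amount. Of the same genes, 8 (0.243%) were at least 2-fold above the higher reference, and 6 (0.183%) at least 2-fold below the lower. The 8 were Acot1, Auts2, Bex4, Crnde, Epb41l4aos, Meg3, Nfkbiz and Spink5. Acot1, an acyl-CoA thioesterase, was at 446 CPM against 153 and 176, and Bex4 at 932 against 432 and 465. Neither was highest there among all sets, since the P15 Sftpc-high cells had 764 CPM of Acot1 and 1321 of Bex4, and the P3 ciliated cells had 377 of Acot1. The 6 were Fbp2, Gstm1, Mylk, S100a8, Scgb1a1 and Sdf2l1. Fbp2, Mylk and S100a8 rested on 1, 2 and 3 UMIs in the Sftpc-high cells. For S100a8, 4 cells held 91.5% of the UMIs of the remaining cells, and 4 held 91.2% of those of the adult AT2 cells. For Scgb1a1 these shares were 27.6% and 31.9%. Its median was 10.4 per 10000 in the Sftpc-high cells, 10.2 in the remaining cells and 8.66 in the adult AT2 cells, so by median it was not below either.

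The imprinted genes Dlk1 and Meg3 were high in the Sftpc-high cells. Dlk1, a Notch-related surface protein of progenitors (chr12, 109452823 to 109463336, plus strand, GRCm38), and Meg3, a long non-coding RNA (chr12, 109541001 to 109571726, plus strand), lie 77665 bases apart in 1 imprinted cluster. Dlk1 was at 915 CPM in the Sftpc-high cells and 3.46 in the remaining cells, and the other 3 libraries do not list it. Its UMIs were found in 56 of the 67 cells, at 0 to 33.3 per 10000 (median 7.86), and in 61 of the 3082 remaining cells (1.98%). Thinned to 2000 UMIs, 58.2% of the Sftpc-high cells, 0.616% of the remaining cells and none of the ciliated cells held a Dlk1 UMI. At equal depth Dlk1 was thus detected far more often in the Sftpc-high cells than in the other cells of their library.

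Meg3 was at 2022 CPM in the P3 Sftpc-high cells, 892 in the remaining cells, 275 in the P15 Sftpc-high cells and 2.12 in adult AT2 cells, where 22 UMIs lay in 11 of 2093 cells. The ratio to the adult was 954 (629 to 1526). It was found in 65 of the 67 cells, at 0 to 52.6 per 10000 (median 17.8). Over the 67 cells Dlk1 and Meg3 had a Spearman rho of 0.46 and a Pearson r of 0.38, as a description of cells that share a library and differ in depth. Of 9 imprinted genes measured against adult AT2 cells 5 were past 2-fold upward and 1 downward. After the subtraction these numbers were 4 and 1, and in the 8 cells 7 and none.

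**Figure D5:**
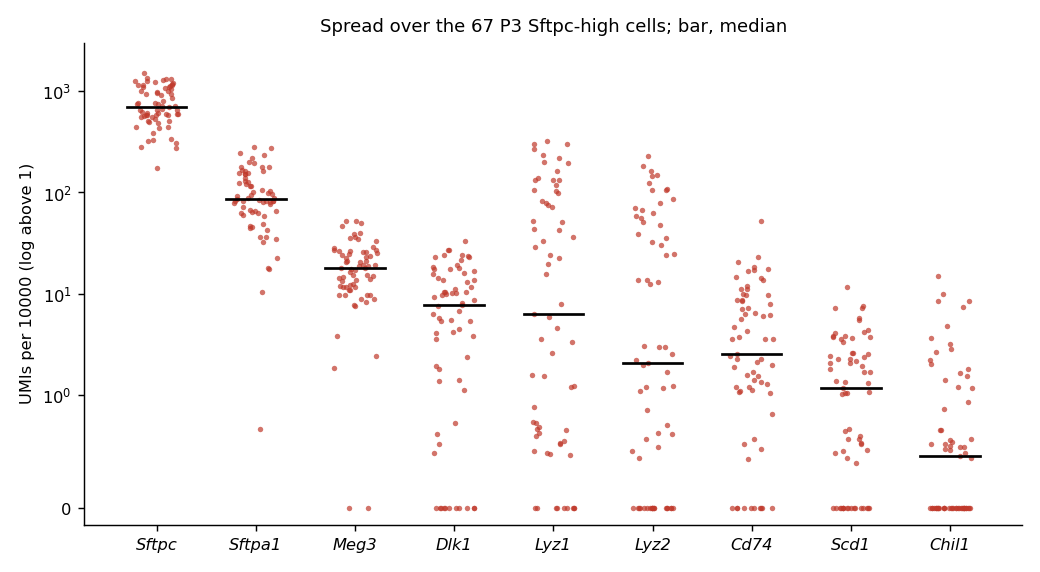
UMIs per 10000 (log above 1) of AT2 and perinatal genes in each of the 67 P3 Sftpc-high cells, 1 point per cell. Lyz1 and Lyz2 span from 0 to 324 and 0 to 230, while Scd1 stays at or under 11.6 and Dlk1 at or under 33.3.

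The genes furthest above the adult AT2 level included many AT1 genes. Of 38 measured AT1 identity genes 34 were at least 2-fold higher than in adult AT2 cells and 1, Cyp2b10, was lower (median log2 ratio 3.38). After the subtraction 11 were higher and 17 lower (median -0.77), which its scaling on AT1 markers set in part. In the 8 cells with few AT1 transcripts 29 were higher and 2 lower (median 1.80). Aqp1, Msln, Spock2, Sema3e and Sema3a, at 132 to 476 CPM, were listed at 0 in the adult AT2 library. Fbln5, an elastic fibre protein, was 165 times higher and the transcriptional regulator Id3 132 times, and Ctgf, Rtkn2 and Igfbp2 were 84.8, 84.0 and 76.7 times higher. Xist, the RNA of the inactive X chromosome, was at 294 CPM against 1.73, and of the adult AT2 cells 801 carried Y-linked UMIs alone and 10 Xist alone. Of 17 basement membrane genes all were higher (median 2.61), and 12 after the subtraction with 1 lower (median 1.55), against 14 and none in the 8 cells (median 2.01). Of 22 immediate early and dissociation genes 18 were higher and 1 lower (median 1.83), 14 and 3 after the subtraction (median 1.57), and 17 and 1 in the 8 cells (median 1.71). Against the remaining cells, which had the same digestion, none of 25 was higher and 2 were lower (median -0.28). Digestion differed between the AT1 and AT2 libraries, and its part in these genes was not tested.

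Of 14 measured genes of distal tip progenitors, 7 were at least 2-fold higher than in adult AT2 cells and 1 was lower (median log2 ratio 0.83). After the subtraction 8 were higher and 1 lower (median 1.13), and in the 8 cells 8 were higher and none lower (median 1.23). Against the remaining cells 6 of 23 were higher and 4 lower (median -0.05). Tuba1a was at 393 CPM, 1073 in the remaining cells and 11.1 in adult AT2 cells, and Tmsb10, an actin-binding peptide, at 2322, 3765 and 322. Sox9, the tip progenitor factor, was at 19.6 CPM and 7.75 in the remaining cells, found in 13 of the 67 cells. Of its UMIs in the Sftpc-high cells 54.5% lay in 4 cells, and none of the 8 cells with few AT1 transcripts held it. The ciliated cells had more Sox9, at 59.1 CPM, in 48 of 127 cells. In the Wnt pathway 9 of 18 were higher than in adult AT2 cells and 2, Lgr4 and Notum, lower, with 8 and 2 after the subtraction and 11 and none in the 8 cells. Against the remaining cells 1 of 22 was higher and 4 lower.

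Cell cycle transcripts gave no reading of how many cells were dividing. Thinned to 2000 UMIs, 7 of 67 cells (10.4%, 4.30 to 20.3) held at least 3 cell cycle genes, against 17.9% of the remaining cells, 26.8% of the ciliated cells and 221 of 2009 adult AT2 cells. Without thinning the shares were 97.0, 74.2, 92.9 and 42.1%. The thinned share was not above that of the ciliated cells, so no cycling can be read from it. Without thinning, a UMI of Mki67 or Top2a, the usual markers of dividing cells, was found in 5 of 67 cells. It was found in 61 of 3082 remaining cells and 12 of 127 ciliated cells. The adult AT2 library does not list Top2a, and its 91 of 2093 cells are those with Mki67 alone, so they cannot be set beside the other shares.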

How the data were processed

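Single-cell RNA was measured in 1 library per group (AT1 at P3, P15 and P60, AT2 at P60). The deposited files hold natural log values of UMIs scaled to 10000 per cell plus 1, as read from the authors' values. Per the submitters' processing notes, the tools included Cell Ranger 1.3.1 and Seurat 2.0.0 and the builds mm10 and hg19 (what hg19 was used for was not stated). Values were unlogged and divided by each cell's smallest step, which gave whole UMIs for 100% of values (tolerance 0.05). These were summed per set of cells and expressed as CPM. Ratios carry exact conditional Poisson intervals at 95%. A ratio was counted with at least 50 CPM on the higher side and 30 UMIs over both, and lists with 30 UMIs alone. For counts of genes past 2-fold, a side with 0 UMIs was given 3. Ciliated cells had at least 5 ciliated markers. No doublets were removed here.

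The genes named were the 12 largest ratios in each direction at 100 CPM or more in the 2 main comparisons, without ribosomal, mitochondrial, haemoglobin and provisional genes and with the same direction under TMM, up to 5 examples per list, the genes of the rule and gate, and markers. A gene that this rule names is not reported here. Genes outside this rule, such as those apart from both references or alone in a direction within a list, were named after their values were seen. The members and the 26 gene lists were chosen with earlier results of these data known. The alternatives were other totals for scaling, filters, rule thresholds, depth and cell exclusions. Positions are from GENCODE vM21 on GRCm38. Counting and intervals were checked on simulated data. Python 3.11.15, numpy 2.4.6, scipy 1.17.1, pandas 2.3.3, scanpy 1.11.5 (Scrublet) and matplotlib 3.10.9 were used.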

Additional observations from a re-analysis of the deposited data

How the results depend on the processing

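For 52 results, 848 values under the alternatives were compared: 685 stayed close, 158 moved and 5 turned direction. Most of these results are the 12 genes of largest ratio in each direction of both comparisons. The shares of cells with an Ager, Hopx, Pdpn or Aqp5 UMI are the others. The 4 counts of genes past 2-fold are not in this tally. Nor are other genes and lists, such as Sftpc and Napsa against adult AT2 cells. The number of Sftpc-high cells was 61 to 70 under other thresholds. Against the remaining cells, the 146 higher genes became 286 at 20 CPM, 84 at 100 CPM, 711 with no CPM minimum, 464 in the 8 cells at or under the 90th percentile of depth, 315 in the cells with few AT1 transcripts and 785 in UMIs per cell. The 207 lower genes became 450, 118, 1562, 765, 931 and 20 in the same order, 71 under TMM and 114 without surfactant genes in the total. Against adult AT2 cells, the 561 higher genes became 1015, 298 and 1617 under the 3 filters, 933 in the cells of lower depth and 291 after the subtraction, and the 239 lower genes 416, 152 and 928 under the filters and 382 after the subtraction. The number of genes tested differs between settings too, and was 2494 after the subtraction against 2772 without it. Causes were not tested, other than that fewer cells give fewer UMIs and a looser filter more genes. The AT1 level of 49.4% was 100.4% in UMIs per cell, 20.2% in the cells with few AT1 transcripts and 52.4% in the others. The cycling share of 10.4% was 20.9% at 3000 UMIs, 97.0% without thinning, 50.7% with 2 genes and 0% with 4. Against the remaining cells, Cdkn1c turned to a log2 ratio of 0.29 in cells of lower depth and 0.32 when remaining cells of mixed type were left out, Mt2 to 1.98 in the latter, and Cyp2f2 to 1.04 in the former and 0.74 in the cells with few AT1 transcripts. TMM moved the median of all genes by 0.24 (remaining) and -0.27 (adult). The subtraction, the cells with few AT1 transcripts and UMIs per cell were chosen after seeing the data. Removing cells with an AT1 share above the 10th percentile of the remaining cells removed 0 cells. No paired analysis was possible because each group holds 1 library. With 1121906 UMIs in 67 cells, genes under about 3 UMIs cannot be told from 0.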
